A study of Rattus norvegicus with 6 samples.

Results

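Calcineurin, the NFAT transcription factors that it controls, the Rcan inhibitors of calcineurin and the scaffold protein Homer1 were followed in left atria from rats given rapid atrial pacing (RAP) or control pacing (Con). The 10 genes were chosen by name, with earlier results of these data known, so a change in any of them is not independent evidence. A gene was read only from probe sets that the array annotation assigns to its symbol alone. Of the 10 genes, 9 had such a probe set, and they stand beside 11237 genes that could be tested in all. Nfatc1 had none and was not analysed here. The 3 RAP rats were paced at the atrium with a cycle length of 70 ms and the 3 Con rats with a cycle length of 140 ms, for 48 hours. All 6 were adult male Sprague-Dawley rats, unanesthetized during the pacing, that carried an electrode on the right atrium and received atenolol, a beta blocker, in the drinking water. The ventricles followed every other beat in RAP rats and every beat in Con rats, so that the ventricular rate was the same and only the atrial rate differed. The control rats were therefore paced as well, and the comparison is between 2 pacing rates. Each RAP rat and its control rat formed a pair that was operated on and paced side by side. The sample titles do not name the pairs, and arrays of the same replicate number were taken as pairs 1 to 3.

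Calcineurin is a phosphatase that calcium and calmodulin switch on. It is built from a catalytic A subunit, encoded by Ppp3ca, Ppp3cb or Ppp3cc, and a calcium-binding B subunit, encoded by Ppp3r1 in the heart. It removes phosphates from the NFATc proteins, which then enter the nucleus and act on genes together with partners such as GATA4 and AP-1, until kinases phosphorylate them again and they leave. The activity of the pathway is set by phosphorylation and location of the proteins, which mRNA levels do not show. Rcan1 and Rcan2 bind calcineurin and restrain it, and a short Rcan1 transcript that starts from an internal promoter is itself a target of NFAT. Homer1 is a scaffold whose EVH1 domain holds proline-rich partners, among them IP3 receptors, ryanodine receptors and TRPC channels, near one another at calcium release sites.

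Promoter windows were compared because Rcan1 is the classical readout of NFAT and Homer1 is the gene of the set that differed most on the arrays. The windows run from 250 bases before to 50 bases after the annotated start and were taken from RefSeq (GRCr8), where 7 of the 10 genes had one. Nfatc1, Nfatc3 and Nfatc4 had none. The Rcan1 window is on the minus strand at chr11:45118187-45118486, at a start inside the gene model and not at its outer end, and the Homer1 window is on the plus strand at chr2:26278762-26279061. Capitals mark the NFAT core GGAAA, the cAMP response element TGACGTCA, the AP-1 site TGACTCA and the TATA box TATAAA, each searched on both strands.
Rcan1: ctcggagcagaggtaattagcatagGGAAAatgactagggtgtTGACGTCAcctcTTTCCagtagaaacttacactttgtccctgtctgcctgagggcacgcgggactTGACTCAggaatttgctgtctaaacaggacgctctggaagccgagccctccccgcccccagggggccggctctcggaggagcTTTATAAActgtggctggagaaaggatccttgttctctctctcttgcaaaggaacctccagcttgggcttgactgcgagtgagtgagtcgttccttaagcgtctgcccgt
Homer1: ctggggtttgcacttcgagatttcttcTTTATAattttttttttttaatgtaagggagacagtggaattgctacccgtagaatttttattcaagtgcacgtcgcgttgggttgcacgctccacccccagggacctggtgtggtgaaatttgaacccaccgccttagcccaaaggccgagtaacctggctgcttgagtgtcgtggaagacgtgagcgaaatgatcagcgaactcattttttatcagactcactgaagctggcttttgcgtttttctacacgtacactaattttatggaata
The Rcan1 window held the NFAT core at 2 places, beginning at positions -225 and -195 from the start, with a cAMP response element between them at -207 and an AP-1 site at -142. Its TATA box matched on both strands at the same place, at -60 and -58. The Homer1 window held a TATA box at -223, far from the start, and 0 matches to the other 3 motifs. The NFAT core is a short word, found in 62.7% of 33469 rat promoter windows of this length, whereas the cAMP response element was found in 1.83%, the AP-1 site in 4.63% and the TATA box in 14.2%. Of the 7 windows, 3 held the NFAT core, those of Rcan1, Ppp3cb and Ppp3r1. A match of letters is a description of the window and not a bound site, and a window without a match says nothing of sites elsewhere.

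The arrays were similar in overall signal and differed in markers of other tissues. The median log2 signal was between 5.82 and 5.85, and the share of probe sets with a log2 signal over 5 was 62.6 to 63.8%. Nppa and Myl7, which define atrial myocytes, were near the top of the scale on all arrays, with log2 signals of 13.53 to 13.59 and 13.63 to 13.76 with RAP and of 13.40 to 13.52 and 13.61 to 13.66 with control pacing. Con 3 stood apart. Its signal of Myl2, the ventricular myosin light chain, was 8.60, against 4.37 to 4.89 in the RAP atria and 4.28 and 4.33 in the other Con atria. Slc4a1, the anion exchanger of red cells, stood at 10.36 in Con 3, against 6.63 to 7.42 in the RAP atria and 6.52 and 7.32 in the other Con atria. Results are therefore also given without pair 3.

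RAP was set against control pacing by limma, a linear model whose moderated test borrows the variance across probe sets, with the pair as a block. Changes are RAP minus Con on the log2 scale, with the moderated standard error (SE). The words rose and fell are kept for genes that met both thresholds of the study's methods, a fold change over 1.3 and an unadjusted p below 0.05, with no correction for how many genes were tested. By these thresholds 6.39% of all genes were called, 2.94% as higher and 3.45% as lower. With Benjamini-Hochberg adjustment 0 of the 11237 genes had a p under 0.05 by limma, where 774 had an unadjusted p under 0.05, and 0 did by the methods' test. The smallest adjusted p was 0.76 by limma and 0.80 by the methods' test. Of the 9 measured genes, 1 of 9 passed the thresholds, Homer1, which rose. The median change of the 9 was 0.23, that of all genes was -0.01, and 4 of the 9 had the same sign in each pair, as did 28.4% of all genes. The adjusted limma p of the 9 genes lay between 0.76 and 0.99. Nfatc2, Rcan1 and Rcan2 were higher with RAP in pairs 1 and 2 and lower in pair 3, a pattern shown by 19.4% of all genes, and Nfatc4 and Ppp3ca had the opposite pattern, shown by 21.7%.

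Homer1 had log2 signals of 7.77, 8.12 and 7.47 in RAP 1 to 3, against 6.83, 6.76 and 7.25 in Con 1 to 3. Each RAP atrium was above each Con atrium, as was true of 7.57% of all genes. The means were 7.79 ± 0.33 with RAP and 6.95 ± 0.26 with control pacing (SD, n = 3 each), a rise of 0.84 (SE 0.25, 95% confidence interval 0.19 to 1.49) or 1.79-fold, with an adjusted p of 0.76 by limma. The rise was 0.94 in pair 1, 1.36 in pair 2 and 0.22 in pair 3. Homer1 no longer passed with pair 1 or pair 2 left out (changes 0.79 and 0.58), nor by the methods' test, in which the variance is not moderated and which called 2.08% of all genes. It passed without pair 3 (1.15) and without the pair as a block, a fit that called 7.74% of all genes. With 3 pairs, the smallest two-sided p of an exact test on the signs of the pairs is 0.25, and with 3 arrays against 3 and no pairing that of an exact permutation test is 0.1.

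The genes closest to Homer1 across the 6 arrays were Akap6, Socs2 and Mybpc3. Likeness was measured as the root mean square difference between log2 signals after each gene's own mean was subtracted, and it was 0.097, 0.101 and 0.103 for these 3 genes, where Homer1 itself varied by 0.48 around its mean. Akap6 anchors protein kinase A and calcineurin at the nuclear envelope of muscle cells, Socs2 is a feedback inhibitor of cytokine signaling, and Mybpc3 is the myosin-binding protein C of cardiac sarcomeres. Akap6 stood at 9.67, 10.15 and 9.34 in RAP 1 to 3, against 8.87, 8.65 and 9.39 in Con 1 to 3. As with Homer1, Con 3 was the highest of the Con atria and RAP 3 the lowest of the RAP atria.

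**Figure D1:**
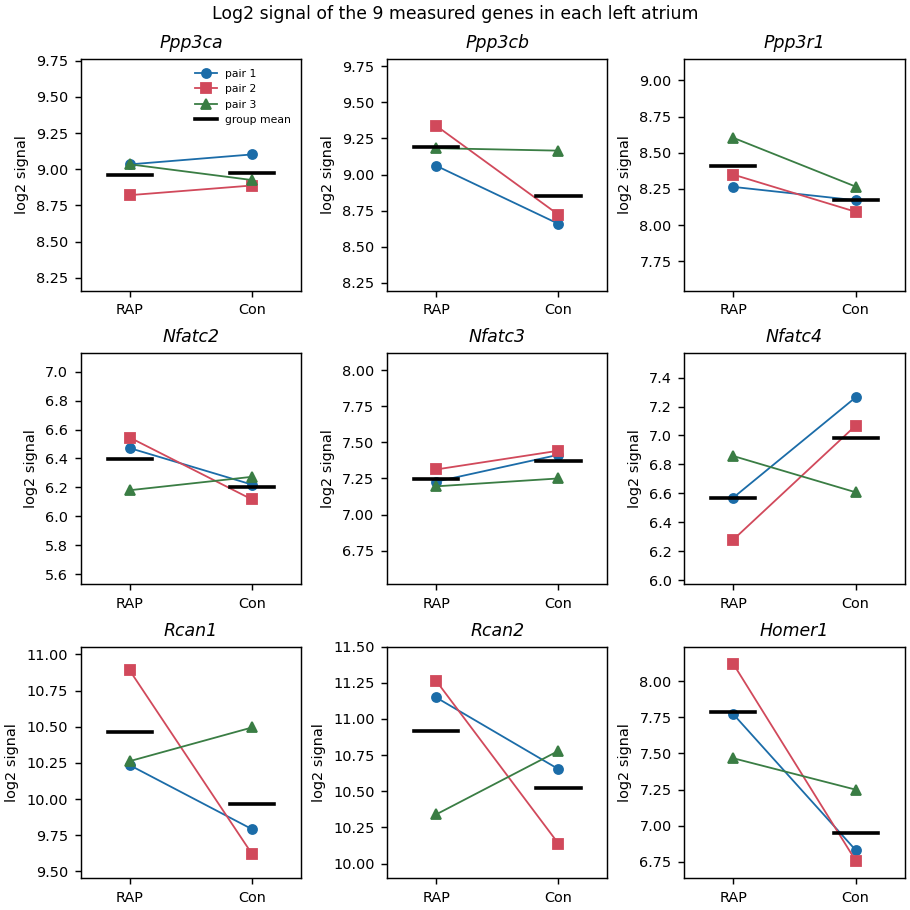
Log2 signal of the 9 measured genes on each array, with RAP on the left and Con on the right of each panel, the 2 atria of a pair joined by a line, and black bars at the group means. All panels span the same range of log2 signal. In Homer1 the 3 RAP atria, from 7.47 to 8.12, lie above the 3 Con atria, from 6.76 to 7.25, and in Rcan1 and Rcan2 the line of pair 3 runs against the lines of pairs 1 and 2.

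None of the 3 calcineurin subunits among the measured genes passed over all pairs. Ppp3ca, the main catalytic subunit in most tissues, had log2 signals of 9.03, 8.82 and 9.03 in RAP 1 to 3, against 9.10, 8.89 and 8.93 in Con 1 to 3. The change was -0.01 (SE 0.13), with an interval of -0.35 to 0.33, so that these arrays leave room for a difference of up to about that size in either direction. Its sign turned with each array centred on its median (0.032) and after a further quantile normalization (0.014). Ppp3cb, another catalytic subunit, had 9.06, 9.34 and 9.18 in RAP 1 to 3, against 8.66, 8.72 and 9.17 in Con 1 to 3. Its change of 0.34 (SE 0.17) did not pass. Con 3 was the only Con atrium within the range of the RAP atria. Ppp3r1, the regulatory B subunit, had 8.26, 8.35 and 8.60 in RAP 1 to 3, against 8.17, 8.09 and 8.27 in Con 1 to 3. It was higher in each of the 3 pairs, by 0.09, 0.26 and 0.34, and the change of 0.23 (SE 0.13) was below the fold threshold. A second probe set of Ppp3r1 was at most 3.52, under the signal level of 5, and fitted with no filter it had a change of 0.08 and did not pass.

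None of the 3 measured NFAT factors passed, and the signs of their changes differed. Nfatc2, the form best known from T cells, had log2 signals of 6.47, 6.54 and 6.18 in RAP 1 to 3, against 6.22, 6.12 and 6.27 in Con 1 to 3, a change of 0.20 (SE 0.16). The lowest RAP atrium, RAP 3, lay among the Con atria. Nfatc3 had 7.23, 7.31 and 7.20 in RAP 1 to 3, against 7.41, 7.44 and 7.25 in Con 1 to 3. It was lower in each pair, with a mean change of -0.12 (SE 0.13) with an interval of -0.46 to 0.21. Nfatc3 and Nfatc4 are the forms best known as effectors of calcineurin in hypertrophy of the mouse heart. Nfatc4 had 6.57, 6.28 and 6.86 in RAP 1 to 3, against 7.26, 7.07 and 6.61 in Con 1 to 3. The change was -0.69 and -0.79 in pairs 1 and 2 and 0.25 in pair 3, with a mean of -0.41 (SE 0.25), and the groups overlapped through Con 3 and RAP 3.

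Neither Rcan inhibitor passed over all pairs, and pair 3 differed in sign from the other pairs in both. Rcan1 had log2 signals of 10.23, 10.89 and 10.26 in RAP 1 to 3, against 9.79, 9.62 and 10.50 in Con 1 to 3. RAP 2 was the highest atrium and Con 3 the next, above the other RAP atria. The change was 0.44, 1.27 and -0.23 in pairs 1, 2 and 3, with a mean of 0.49 (SE 0.31) and an interval that includes 0. Without pair 2 the change of Rcan1 was 0.10. The array value is a summary over the probe set, which does not separate the short transcript from the long one. Rcan2, the form known for its response to thyroid hormone, had 11.15, 11.26 and 10.34 in RAP 1 to 3, against 10.65, 10.14 and 10.78 in Con 1 to 3. Its change was 0.50, 1.13 and -0.44 in pairs 1, 2 and 3, with a mean of 0.39 (SE 0.32), and RAP 3 was below 2 of the 3 Con atria. Without pair 2 the change of Rcan2 was 0.03.

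**Figure D2:**
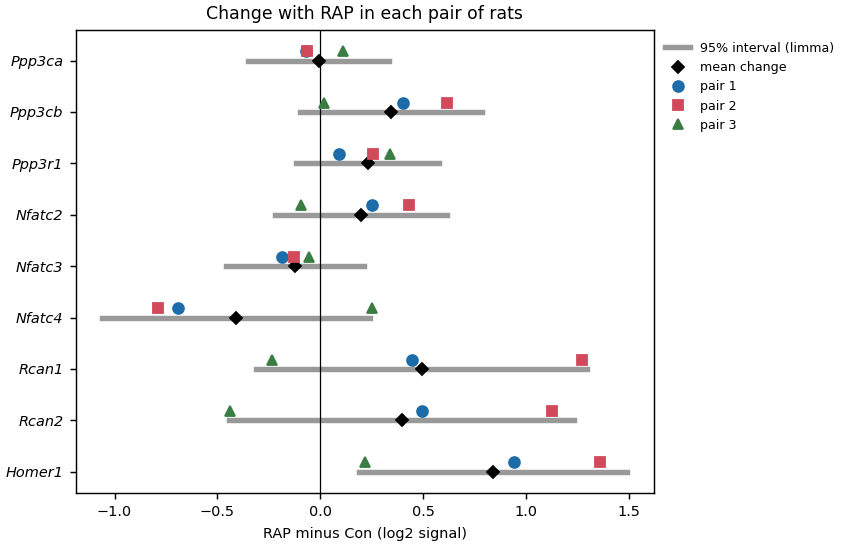
RAP minus Con in log2 signal for the 9 measured genes, with a coloured point for each pair, a black diamond for the mean and a grey bar for its 95% confidence interval by limma. The interval of Homer1 lies above 0, from 0.19 to 1.49, and the intervals of the other 8 genes include 0.

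The picture depended on pair 3. With that pair left out, 5 of the 9 genes passed the thresholds, 4 higher and 1 lower, where 22.1% of all genes did, 9.49% as higher and 12.7% as lower. Homer1 rose by 1.15, Rcan1 by 0.86, Rcan2 by 0.81 and Ppp3cb by 0.51, and Nfatc4 fell by 0.74. Ppp3ca (-0.07), Ppp3r1 (0.17), Nfatc2 (0.34) and Nfatc3 (-0.16) did not pass in that setting either. With Con 3 alone left out and no pairing, Homer1, Rcan1, Ppp3cb and Nfatc4 passed, where 15.4% of all genes did, 6.85% as higher and 8.55% as lower. Without pair 1 or without pair 2, 0 of the 9 genes passed, where 1.46% and 3.36% of all genes did.

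**Figure D3:**
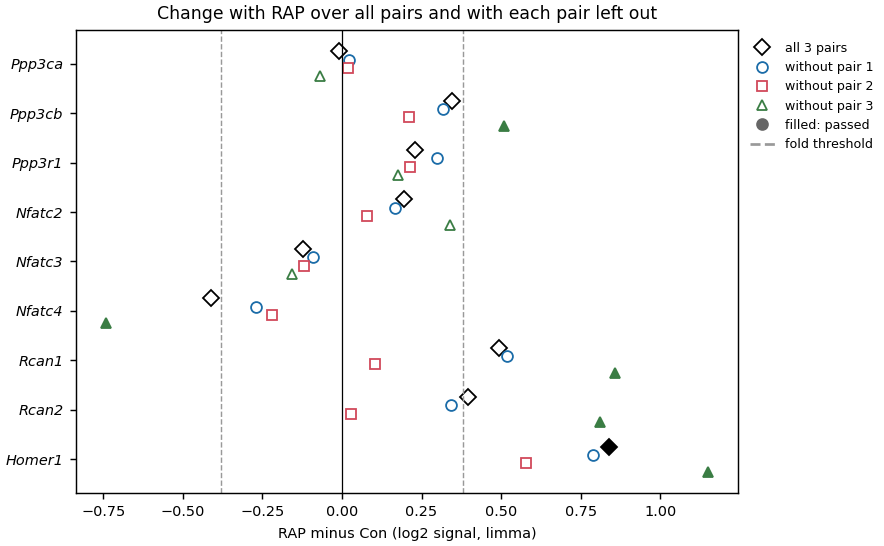
Change with RAP by limma for the 9 measured genes over all 3 pairs and with each pair left out in turn, on the log2 scale, with dashed lines at the 1.3-fold threshold and filled symbols for genes that passed the thresholds. Over all pairs Homer1 passed, without pair 3 Homer1, Rcan1, Rcan2, Ppp3cb and Nfatc4 passed, and without pair 1 or pair 2 none of the 9 did.

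Markers of cell types moved beside these genes, and in whole tissue fewer cells of a type cannot be told apart from less RNA per cell. Each marker list is given as its mean log2 deviation from the genes' own means over the 6 arrays. The 5 measured of 6 atrial myocyte markers stood at 0.14, 0.29 and -0.05 in RAP 1 to 3, against -0.09, -0.25 and -0.05 in Con 1 to 3. Homer1 stood at 0.41, 0.75 and 0.10 with RAP and at -0.53, -0.61 and -0.12 with control pacing. Its order over the 6 arrays, from RAP 2 down to Con 2, was that of the atrial myocyte list. In that list RAP 3 (-0.047) and Con 3 (-0.051) were nearly level. The 4 ventricular markers stood at -0.36, 0.33 and -0.17 in RAP 1 to 3, against -1.04, -0.71 and 1.95 in Con 1 to 3. Rcan1 stood at 0.02, 0.67 and 0.05 with RAP and at -0.42, -0.60 and 0.28 with control pacing. Like both the ventricular and the atrial myocyte markers, it was highest in RAP 2 among the RAP atria and in Con 3 among the Con atria. Across all 6 arrays, however, the ventricular markers were highest in Con 3, and Rcan1 and the atrial myocyte markers in RAP 2. The 6 fibroblast markers stood at -0.17, -0.70 and 0.17 in RAP 1 to 3, against 0.40, 0.68 and -0.39 in Con 1 to 3. Nfatc4, at -0.20, -0.49 and 0.08 with RAP and at 0.49, 0.29 and -0.17 with control pacing, was below its mean in the same 3 atria as these markers, RAP 1, RAP 2 and Con 3. The 7 macrophage markers stood at -0.36, -0.63 and 0.27 in RAP 1 to 3, against 0.17, 1.09 and -0.54 in Con 1 to 3. They too were below their mean in RAP 1, RAP 2 and Con 3 only. The 7 T cell markers, which are given because Nfatc2 is abundant in lymphocytes, were highest in Con 2 (0.95), where Nfatc2 was lowest (-0.18). Of the markers in all 12 lists, 5 of 57 tested passed over all pairs, 3 higher and 2 lower, where 6.39% of all genes passed. Pam, an enzyme of atrial granules, rose by 0.43 (SE 0.15). As with Homer1, all 3 RAP atria were above the Con atria, which held for 7.57% of all genes. The rise of Pam, like that of Homer1, was smallest in pair 3 (0.20). Of 5 adipocyte markers, 2 rose, the adiponectin gene Adipoq by 1.09 (SE 0.21) and the lipid droplet gene Cidec by 0.58 (SE 0.15). The adipocyte list stood at -0.48, -0.09 and 1.27 in RAP 1 to 3, against -0.90, -0.48 and 0.68 in Con 1 to 3, and so was highest in both atria of pair 3. Of 3 measured mesothelial markers, 2 fell, Msln by 0.71 (SE 0.14) and Wt1 by 0.85 (SE 0.19), and both were lower with RAP in each pair. Msln and Adipoq also passed with any single pair left out. Without pair 3, where 22.1% of all genes passed, 7 of 7 macrophage, 5 of 6 fibroblast and 4 of 5 mast cell markers fell. In that setting 2 of 4 ventricular, 2 of 5 atrial myocyte and 2 of 5 adipocyte markers rose, and 2 of 3 mesothelial markers fell. Of 3 measured neuron and Schwann cell markers, 2 rose and 1 fell. In the endothelial, smooth muscle, T cell and erythroid lists 0 markers passed there. The part of these cell types in the changes of the 9 genes was not tested.

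**Figure D4:**
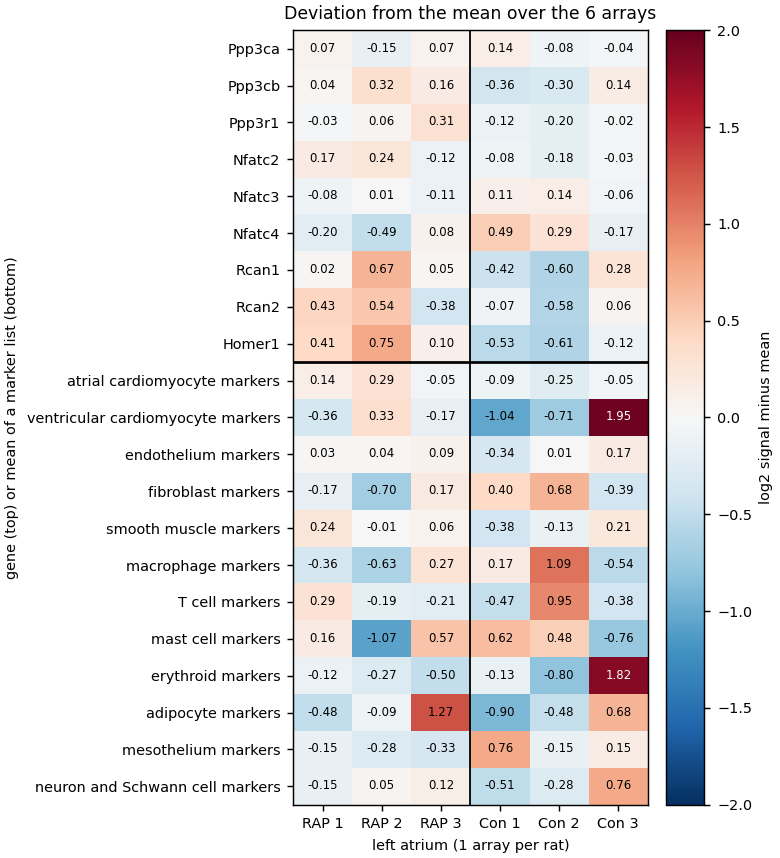
Deviation in log2 signal from the mean over the 6 arrays, for the 9 measured genes (top rows) and for the mean of each list of cell type markers (bottom rows), with the RAP atria left of the line and the Con atria right of it. Con 3 stands at 1.95 in ventricular and 1.82 in erythroid markers, and Homer1 is positive in all RAP atria and negative in all Con atria.

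Of 92 other genes of the pathway, 86 had a probe set under their symbol alone and 81 could be tested. Of these 2 rose and 3 fell, with a median change of 0.01, and 5 of 81 compare with the 6.39% of all genes. With adjustment 0 of the 81 had a p under 0.05 by limma or by the methods' test, and 6 and 7 had an unadjusted p under 0.05. Without pair 3 the number that passed was 21, which compares with the 22.1% of all genes in that setting.

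Upstream of calcineurin, 15 genes of calcium entry, store release and calmodulin had a median change of -0.09, and 1 fell. Stim2, a calcium sensor of the endoplasmic reticulum that opens Orai channels, had log2 signals of 7.60, 7.23 and 7.47 in RAP 1 to 3, against 8.09, 7.82 and 7.67 in Con 1 to 3, a fall of 0.43 (SE 0.15, adjusted p = 0.76 by limma). All 3 RAP atria were below the Con atria, as was true of 7.85% of all genes. Stim2 did not pass without pair 1 (-0.40), without pair 2 (-0.34) or by the methods' test. Of 14 other subunits, inhibitors and anchors of calcineurin, 0 passed (by limma 0 also had an unadjusted p under 0.05, and by the methods' test 0 passed), with a median of -0.12 and a range of -0.46 to 0.54. Among them the catalytic subunit gene Ppp3cc had a mean log2 signal of 8.90 in the Con atria and a change of 0.02 (SE 0.22). Of 13 kinases that return NFAT to the cytoplasm, 0 passed in either test and 0 had an unadjusted limma p under 0.05. Their changes ran from -0.24 to 0.24 with a median of -0.02.

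Downstream of calcineurin, 6 other substrates had a median change of 0.01, and 1 rose. Dnm1l, the mitochondrial fission protein Drp1, which calcineurin dephosphorylates, had log2 signals of 9.16, 9.42 and 9.48 in RAP 1 to 3, against 8.35, 8.56 and 8.94 in Con 1 to 3. All 3 RAP atria were above the Con atria, as was true of 7.57% of all genes. The rise of 0.74 (SE 0.14, adjusted p = 0.76 by limma) passed with any single pair left out. It also passed by the methods' test, which called 2.08% of all genes. Among 11 nuclear partners, transport factors and repressors of NFAT, 2 fell and the median change was 0.07. Foxp1, a repressor of NFAT in cardiomyocytes, had 8.82, 8.72 and 8.65 in RAP 1 to 3, against 9.41, 9.23 and 9.23 in Con 1 to 3, a fall of 0.56 (SE 0.13, adjusted p = 0.76 by limma). Foxp1 was lower by nearly the same amount in each pair, by 0.59, 0.51 and 0.58. Jun, a subunit of the AP-1 complex that binds DNA with NFAT, fell by 0.49 (SE 0.13, adjusted p = 0.76 by limma), by 0.41, 0.43 and 0.64 in pairs 1, 2 and 3. In both genes all 3 RAP atria were below the Con atria, as was true of 7.85% of all genes. Both passed without pair 3 and by the methods' test, which called 2.08% of all genes. Foxp1 also passed without pair 2, but not without pair 1, where its change was -0.55. Jun did not pass without pair 1 or without pair 2, where its change was -0.53 in both settings.

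Genes known as NFAT targets had changes of both signs. Of 16 tested, 1 rose and 0 fell, with a median change of 0.12 and a range of -1.35 to 1.61. Kcnj2, which encodes the inward rectifier Kir2.1, had 6.98, 7.32 and 6.79 in RAP 1 to 3, against 6.47, 6.81 and 6.33 in Con 1 to 3. The groups overlapped, as Con 2 was above RAP 3, but the rise was 0.50, 0.51 and 0.45 in pairs 1, 2 and 3, with a mean of 0.49 (SE 0.13, adjusted p = 0.76 by limma). Kcnj2 passed by the methods' test, which called 2.08% of all genes, and without pair 3, where 22.1% of all genes passed. It did not pass without pair 1 or without pair 2, where its changes were 0.48 in both settings. Foxp1 and Kcnj2 were chosen by the study on these same samples, for a change shared in direction with a human atrial fibrillation data set. Their changes here are therefore not independent evidence. Kcnj2 was also among the genes with RT-qPCR primers in the study. Named after their values were seen are the ends of the range, the skeletal actin gene Acta1 (1.61, SE 0.62) and the chemokine gene Ccl2 (-1.35, SE 1.04). Neither passed over all pairs, though Acta1 did without pair 2. Each differed most in a single pair, Acta1 in pair 1 (3.39) and Ccl2 in pair 2 (-4.49).

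Relatives of Homer1 and ligands of its EVH1 domain did not pass. Of these 9 relatives and ligands, 0 passed over all 3 pairs in either test, 0 had an unadjusted limma p under 0.05, and the median change was 0.18. Named after their values were seen are Ryr2, the ryanodine receptor of the heart (0.66, SE 0.27), Itpr1, an IP3 receptor (0.49, SE 0.19), and the channel Trpc1 (0.49, SE 0.24). These 3 ligands passed without pair 3, where 22.1% of all genes did. Homer2 (0.21, SE 0.19) and Homer3 (-0.24, SE 0.21) did not pass over all 3 pairs, and Homer3 fell without pair 3. Whether Homer1 differed from its relatives in its response was not tested.

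**Figure D5:**
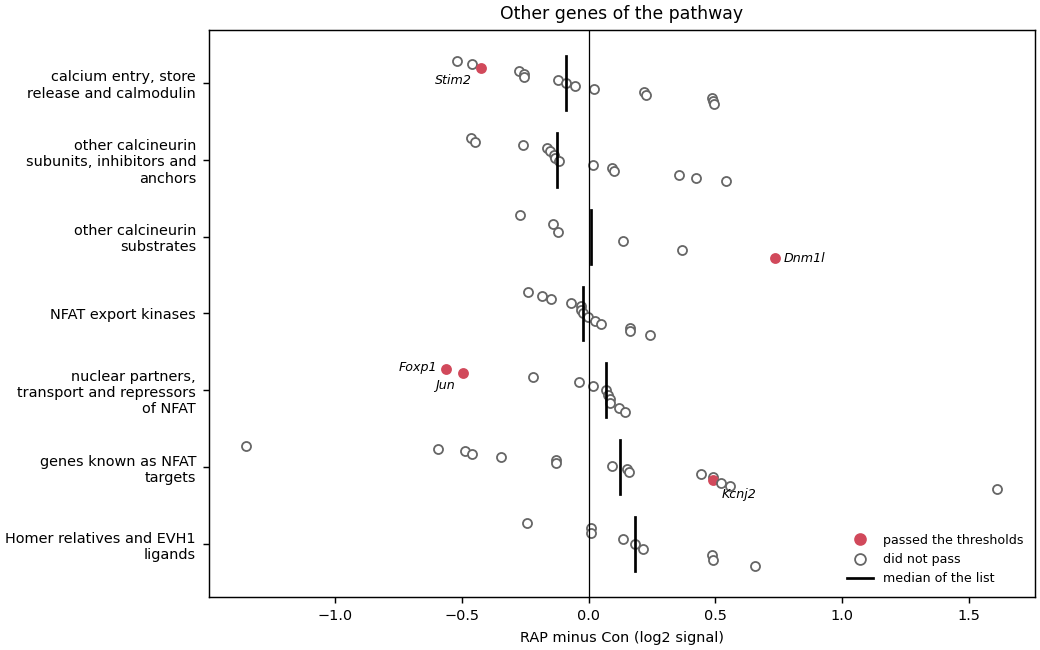
RAP minus Con in log2 signal of the other genes of the pathway by list, with a point for each gene, filled and named where it passed the thresholds, and a bar at the median of each list. The medians lie between -0.12 and 0.18, and the genes that passed are Stim2, Dnm1l, Foxp1, Jun and Kcnj2.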

How the data were processed

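Left atrial RNA of 6 rats had been hybridized to 1 GeneChip Rat Gene 1.0 ST array per rat. The authors deposited a log2 signal for each probe set, made by robust multiarray averaging (RMA) with the default parameters of Partek Genomics Suite. RMA corrects background, normalizes the arrays by quantiles and summarizes probes, so a difference common to all genes is removed. The software version and genome build are not given in the sources used here. Gene symbols came from the array annotation (15310 probe sets with 1 symbol, 323 with several, 13581 with none).

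Probe sets with a log2 signal above 5 on at least 1 array were kept (19907 of 29214), as in the study's methods, and where a gene had several probe sets the one with the highest mean stands for it. They were fitted with limma 3.58.1 in R 4.3.3 with the pair as a block, with no variance trend (residual degrees of freedom 2, prior 2.76), and p-values were adjusted over all kept probe sets. The methods' test is the paired test per probe set that the study's methods name. The sample titles give a group and a replicate number, and the study's methods describe the pairs. Taking arrays of the same number as a pair was an assumption, on which every result by pair rests. As a check, deviations of paired arrays from their group means were correlated across probe sets at 0.22, -0.24 and -0.32 in pairs 1 to 3. Only pair 1 had a positive correlation, so the check did not bear out the matching by number. The study reports clear similarity within pairs by principal component analysis. The fit was tested on simulated data. The named genes are all members, up to 4 genes per list that passed the thresholds, Kcnj2 and Foxp1, and the 3 genes most like a member that passed. Cell type markers are named where they passed or define a list, and Acta1, Ccl2, Ryr2, Itpr1, Trpc1, Homer2, Homer3, Ppp3cc and Chp1 fall outside the rule and were named after their values were seen. The members, gene lists and marker lists were chosen with earlier results of these data known. Alternatives were no block, the methods' test, other moderation, array weights, other filters and scalings, and leaving out a pair or an array.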

Additional observations from a re-analysis of the deposited data

How the results depend on the processing

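Over the 9 measured genes, the single call (Homer1) stayed at 1 without the pair as a block, with a variance trend and robust moderation, with no filter, with a stricter filter (a log2 signal above 6) and with each of the 3 other scalings. It was 0 by the methods' test and 5 with array weights, which gave pair 1 a weight of 4.91 and pair 3 one of 0.33. Leaving out a pair gave 0 to 5 calls, and leaving out 1 array with no pairing gave 1 to 4. Of the other pathway genes 5 passed, against 9 without the pair as a block, 8 with no filter and 22 with array weights. The number was 1 to 21 with a pair left out and 4 to 17 with 1 array left out and no pairing, and the cause of these shifts was not tested. The share of all genes that passed with array weights or with no filter is not given here. The counts in those settings, also that of 5 of the 9 genes, therefore stand without a background. The block changed the call of 0 of the 9 genes. Among the pairs left out, the counts were highest without replicate 3, the pair with Con 3. The sign of Ppp3ca turned with the arrays centred on their medians (0.032), after quantile normalization (0.014) and, with no pairing, without RAP replicate 2 (0.062) or Con replicate 1 (0.056), and with 1 pair left out its change ran from -0.068 to 0.021. In the settings run, 0 of the other 8 genes changed sign. The number of rats, 3 per group, limits the precision.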

Other observations

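Chp1 encodes a calcineurin B homologous protein that can inhibit calcineurin, and it was picked out after its values were seen. Its 3 probe sets were each lower with RAP in all 3 pairs, with mean log2 changes of -0.26, -0.26 and -0.28 (SE 0.13, 0.14 and 0.13). None of the 3 passed the thresholds. Whether they share sequence was not tested, so they are not given as independent measurements.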
